A study of Mus musculus with 7 samples.

Results

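The conjugation enzymes of the kidney were read from every row of the deposited tables whose symbol begins with Gsta, Gstk, Gstm, Gsto, Gstp, Gstt or Gstz and a digit, with Ugt and a digit, or with Sult and a digit. The rule took 61 of 24328 rows and used no measured value. Of these genes, 21 encode glutathione S-transferases (GST), 21 UDP-glycosyltransferases (UGT) and 19 cytosolic sulfotransferases (SULT). RNA had been sequenced from the right kidney of 3 mice homozygous for the ichthyosis allele of Lbr (genotype Lbric-J/ic-J, called LBR-null) and of 1 wild-type littermate (Lbr+/+, called WT). All were C57BL/6J mice, 4 weeks old, kept on standard chow. LBR, the lamin B receptor, sits in the inner nuclear membrane and anchors heterochromatin there. The study describes the allele as a loss-of-function mutation. Pulverized tissue of mice 4001 and 4007 and of the WT mouse 4009 gave 2 libraries each, and mouse 4002 gave 1. Libraries of an animal were averaged, so the comparison is of 3 LBR-null mice with 1 WT mouse, and the spread among WT mice cannot be known.

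These enzymes carry out the second step in the disposal of drugs, toxins, hormones and lipid peroxides. GSTs join an electrophile to the thiol of glutathione, UGTs add glucuronic acid or another sugar from a UDP-sugar, and SULTs add sulfate from the donor PAPS. Each reaction makes the product more soluble in water, and transporters then move it into urine or bile. In the kidney they are known mainly from the proximal tubule, where glutathione conjugates are also trimmed to mercapturates. Many members are known to differ between male and female rodents. Some members work outside this scheme: Ugt8a makes galactosylceramide for myelin, Ugt3a1 and Ugt3a2 use sugars other than glucuronic acid, and Gstz1 is an isomerase of tyrosine breakdown.

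The study asks how genes with and without a CpG island at their start respond to LBR loss, so the starts of 5 members that the results turn on are shown. Each line gives the 250 bases before the annotated start, 5′ to 3′ on the gene's own strand, from RefSeq on GRCm38.p6. Capitals mark matches to GCGTG, the core of the xenobiotic response element, or to GTTAAT, part of the HNF1 site, on either strand.
Sult1a1: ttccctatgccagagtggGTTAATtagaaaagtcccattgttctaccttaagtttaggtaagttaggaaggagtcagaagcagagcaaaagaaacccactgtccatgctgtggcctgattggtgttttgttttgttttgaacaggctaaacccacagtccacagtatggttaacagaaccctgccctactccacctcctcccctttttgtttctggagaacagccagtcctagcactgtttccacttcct
Sult1d1: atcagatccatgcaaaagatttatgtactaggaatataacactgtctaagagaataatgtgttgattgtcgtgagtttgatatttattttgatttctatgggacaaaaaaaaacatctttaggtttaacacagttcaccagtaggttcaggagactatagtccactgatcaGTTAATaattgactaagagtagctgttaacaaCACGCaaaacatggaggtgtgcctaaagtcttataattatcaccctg
Ugt1a10: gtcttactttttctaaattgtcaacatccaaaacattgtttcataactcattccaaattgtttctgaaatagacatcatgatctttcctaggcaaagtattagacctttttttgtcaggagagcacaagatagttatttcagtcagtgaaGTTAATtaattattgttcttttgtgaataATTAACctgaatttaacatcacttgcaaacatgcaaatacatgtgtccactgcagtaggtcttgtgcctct
Ugt2b38: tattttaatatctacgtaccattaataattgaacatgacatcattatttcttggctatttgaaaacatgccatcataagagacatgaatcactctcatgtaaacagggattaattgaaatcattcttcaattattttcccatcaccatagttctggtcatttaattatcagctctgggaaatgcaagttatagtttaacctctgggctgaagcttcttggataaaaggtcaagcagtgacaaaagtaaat
Gstp1: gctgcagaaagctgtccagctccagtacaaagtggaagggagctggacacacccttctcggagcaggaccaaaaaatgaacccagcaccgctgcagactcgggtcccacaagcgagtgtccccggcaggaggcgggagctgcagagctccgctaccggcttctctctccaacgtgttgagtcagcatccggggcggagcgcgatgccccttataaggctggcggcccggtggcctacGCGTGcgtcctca

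These windows lie at chr7:126676419-126676668, minus strand, chr5:87569007-87569256, minus strand, chr1:88055161-88055410, plus strand, chr5:87424204-87424453, minus strand and chr19:4037913-4038162, minus strand, in that order. The starts of Sult1a1 and Ugt1a10 held 0 CpG dinucleotides each, that of Ugt2b38 held 1 and that of Sult1d1 2, at a GC content of 45.6%, 32.4%, 32.4% and 34%. The Gstp1 start was of the other kind, with 18 CpG dinucleotides and 63.2% GC. RefSeq entries were matched for 53 of the 61 members. Gstt2, Ugt3a2, Gsta4, Sult4a1, Ugt1a6b, Sult2a1, Sult2a2 and Sult2a7 were not matched in the promoter table used here.

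The libraries held 20694016 to 26333284 reads on genes, and 1 read was worth 0.787 to 1.15 normalized counts, the unit used throughout (reads divided by the size factor of the library). Libraries also differed in other ways that run with genotype or with 1 animal. The labels give no sex. Xist, which is transcribed from the inactive X chromosome, was at 5352 and 6218 in mouse 4001, 65.3 in mouse 4002, 10162 and 9718 in mouse 4007, and 39.4 and 31.7 in WT, so mice 4001 and 4007 stood apart from mouse 4002 and WT in this gene. All 4 Y-linked genes read (Ddx3y, Eif2s3y, Kdm5d and Uty) split the animals in the same way, with Ddx3y at 149 and 133 in mouse 4001, 1516 in mouse 4002, 49.4 and 39.2 in mouse 4007, and 1299 and 1269 in WT. Of 3 genes that androgen raises in mouse kidney, Kap and Odc1 were below WT in every LBR-null library, mouse 4002 included, with Kap at 147073 and 109251 in mouse 4001, 205800.0 in mouse 4002, 60866 and 57458 in mouse 4007, and 347003 and 367289 in WT. The other, Slco1a1, was above WT in every LBR-null library at a low level, 7.29 to 12.6 in LBR-null and 2.36 and 5.43 in WT. The 5 liver markers (Alb, Apoa1, Fgb, Ahsg and Serpina1a) summed to 22285 and 15082 in mouse 4001, 7207 to 8148 in the other LBR-null libraries and 3318 and 3335 in WT. The 9 proximal tubule markers summed to 134393 to 179636 in LBR-null and 237166 and 238353 in WT, and 6 of the 9 lay below WT and the other 3 above WT in every LBR-null library. All 9 were present in all 7 libraries. The 4 neutrophil markers summed to 358 to 2358 in LBR-null and 58.3 and 63.3 in WT, and the 3 adipocyte markers to 33.5 to 214 and to 1216 and 1218. In whole kidney, fewer cells of a type and less RNA per cell cannot be told apart.

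The sulfotransferases were the class with the higher level in LBR-null kidney, and the glycosyltransferases the class with the lower level. Summed over members, SULT mRNA came to 28616 ± 9418 normalized counts (SD, n = 3 mice) in LBR-null and 12080.2 in WT. UGT mRNA came to 8553 ± 3735 in LBR-null and 18185 in WT, and GST mRNA to 57741 ± 3267 and 58858. All 3 LBR-null mice lay above WT for SULT and below it for UGT, whereas for GST the WT value lay inside the range of the 3. A single gene makes up most of the SULT and UGT sums: Sult1d1 held 76.4% to 85.8% of SULT counts and Ugt3a2 58.3% to 75.0% of UGT counts in the 4 mice.

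**Figure D1:**
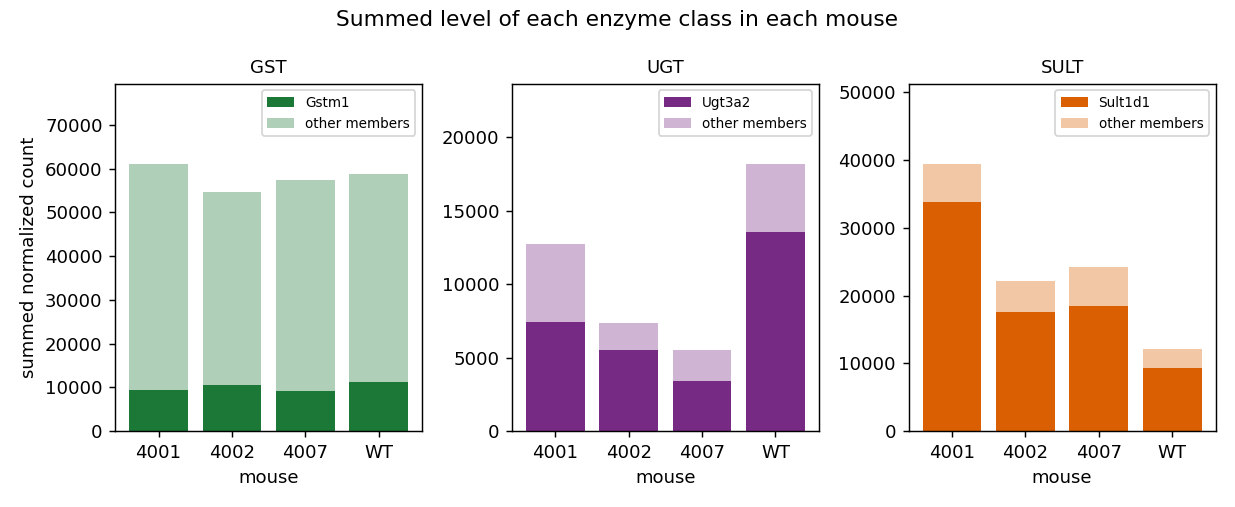
Summed normalized counts (vertical axis, starting at 0) of the GST, UGT and SULT members in each of the 3 LBR-null mice and the WT mouse, with the leading member in the full colour and all other members in the pale colour. SULT bars are taller in all 3 LBR-null mice, from 22191 to 39427 against 12080.2 in WT, while UGT bars are shorter, and both differences sit largely in the leading gene.

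Of the 61 members, 48 had a mean of at least 5 normalized counts over the 4 mice and were tested with limma, together with all other genes past that level. No member passed an adjusted p of 0.05 with a 2-fold difference, and 0% of all 17283 genes tested did so either. The lowest adjusted p among members was 0.0795, for Ugt2b38. Without adjustment, p was under 0.05 for 8 members that were higher in LBR-null (16.7% of 48, beside 10.7% of all genes) and for 6 that were lower (12.5%, beside 8.05%). By means alone, 13 members were at least 2-fold higher (27.1%, beside 14.5% of all genes) and 8 at least 2-fold lower (16.7%, beside 7.04%). Of the 13, 5 (Sult1c1, Sult1e1, Sult2a8, Ugt2b1 and Ugt2b35) had a WT level under 5 and passed that level only through the LBR-null mice. So did 3 of the 8 that were higher at an unadjusted p under 0.05 (Sult1c1, Sult1e1 and Ugt2b1). Such a gene had to be higher in LBR-null to be tested, so these counts support no excess. Sult6b1 passed only through WT. At a mean of at least 20, 35 members were left. Of these, 4 were higher at an unadjusted p under 0.05 (11.4%, beside 7.23% of all genes) and 5 at least 2-fold higher (14.3%, beside 8.09%). In the other direction, 6 were lower at an unadjusted p under 0.05 (17.1%, beside 8.76%) and 5 at least 2-fold lower (14.3%, beside 6.74%). This level is one-sided for some genes too. Ugt1a1, among those 2-fold higher, passed it only through LBR-null (mean 69.2, WT 15.6). Ugt2b38, in both lower counts, passed it only through WT (209, LBR-null mean 9.59). Every LBR-null library lay above both WT libraries for 10 members (20.8%, against a background of 25.5%) and below both for 15 (31.2%, against 25.7%), so the share of members without overlap was close to that of genes in general. The median log2 fold change over the 48 members was 0.02, beside 0.01 over all genes. Taken animal by animal, it was 0.27 for mouse 4001, -0.07 for 4002 and -0.10 for 4007 (SD 0.20), beside 0.01 over all genes for each.

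DESeq2, the tool the study names, was run on the whole reads recovered from the tables, summed per mouse. It called 3 members higher, namely Sult1a1 (adjusted p = 1.16e-05), Sult1b1 (0.0337) and Gstt2 (0.0164), where it called 3.24% of all genes higher. It also called 3 members lower, namely Ugt2b38 (adjusted p = 2.32e-09), Gstp1 (0.0096) and Sult1c2 (0.0279), where it called 3.48% of all genes lower. Over all alternatives run, the adjusted p ranged from 1.16e-05 to 0.229 for Sult1a1, from 0.0337 to 0.323 for Sult1b1 and from 0.00329 to 0.435 for Gstt2. It ranged from 2.32e-09 to 0.229 for Ugt2b38, from 0.000748 to 0.333 for Gstp1 and from 0.0127 to 0.431 for Sult1c2. The lowest values of Gstt2 and Gstp1 came from a fit with 6 libraries as samples and the mouse as a random effect. That fit leaves out mouse 4002. The edgeR quasi-likelihood test on the same reads called no member at an adjusted p of 0.05, and among all genes it called 0.00579% higher and 0.156% lower. Without adjustment, 8 members were higher (beside 10.3% of all genes) and 6 lower (beside 8.88%) in edgeR at a p under 0.05, 3 of the 8 being the genes that could be tested only if higher. The limma count depended on which animals were used. Without mouse 4001 it called 7 members (Sult1a1 higher, and Ugt2b38, Ugt1a10, Ugt1a7c, Ugt3a2, Sult1c2 and Gstp1 lower) and 6.76% of all genes, and without mouse 4002 it called Sult1a1, Ugt2b38 and Gstp1 and 3.62% of all genes.

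**Figure D2:**
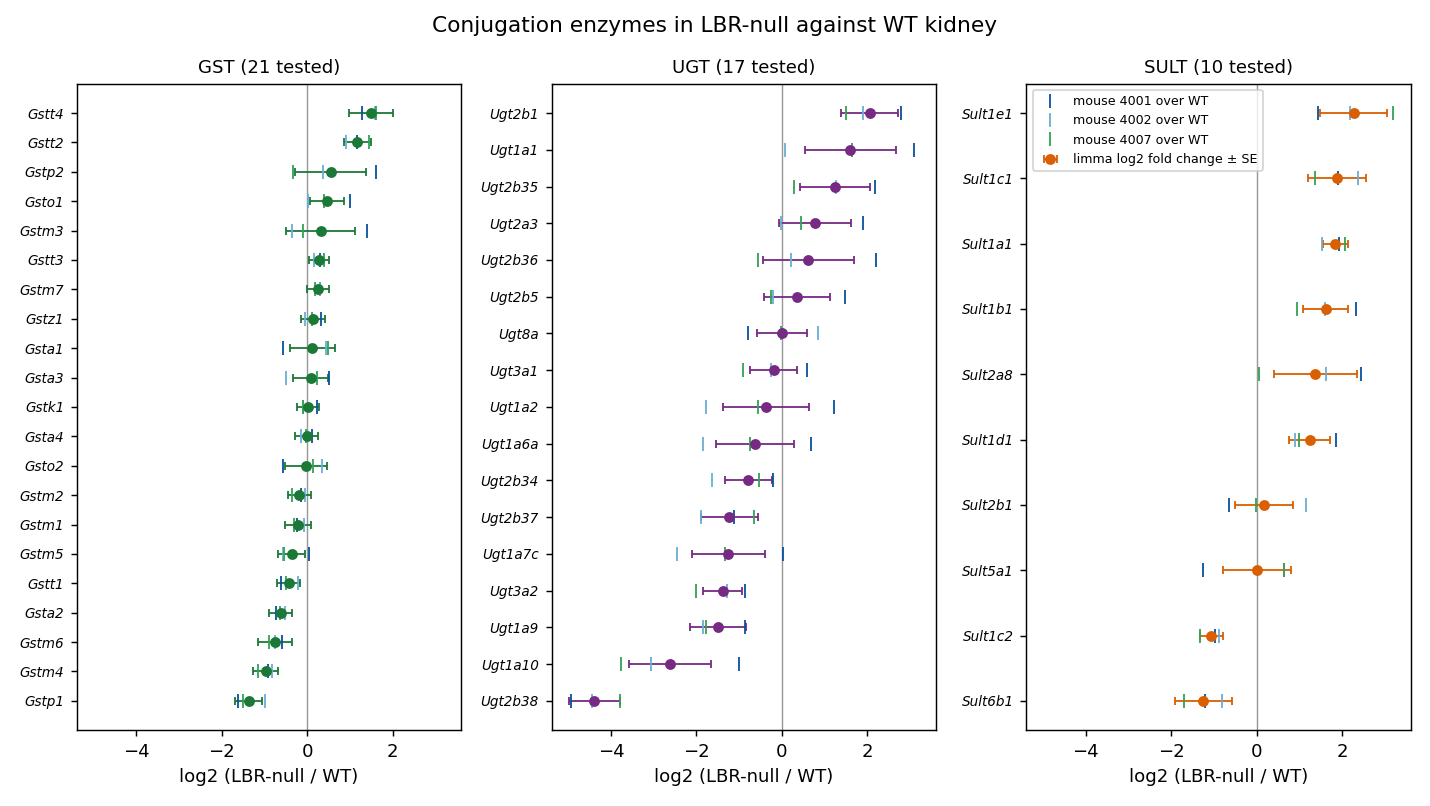
Log2 fold change of LBR-null over WT for the 48 tested members, by enzyme class (points with bars, limma estimate ± SE on log2 of the normalized count plus 1), with the log2 ratio of each LBR-null mouse to WT as ticks. GST points cluster near 0 with Gstt4 and Gstt2 at the high end and Gstp1 at the low end. UGT points spread from Ugt2b38 at -4.39 to Ugt2b1 at 2.05, and 8 of 10 SULT points lie above 0. Of the points above 0, Sult1c1, Sult1e1, Sult2a8, Ugt2b1 and Ugt2b35 could be tested only if higher in LBR-null.

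Among the sulfotransferases, the Sult1 subfamily, whose members act on phenols, catechols, thyroid hormone and oestrogen, had a median log2 fold change of 1.73, beside 1.31 over the 10 tested SULT genes. All 6 Sult1 genes were tested, 5 were higher and 1 was lower in LBR-null at an unadjusted p under 0.05. Of the 5, Sult1c1 and Sult1e1 were tested only because they were high in LBR-null, and so was Sult2a8 among the 10. The count and the medians therefore support no direction of the subfamily or of the tested SULT genes. Sult1d1, which sulfates catecholamines, was the SULT member with the highest level per length, at 9624 normalized counts per kb of exon in LBR-null and 3875 in WT. Its normalized counts were 34416 and 33245 in mouse 4001, 17528 in mouse 4002, 19626 and 17401 in mouse 4007, and 9423 and 9329.5 in WT. The groups did not overlap, and mouse 4001 was the highest. The mean ratio was 2.48, with a limma log2 fold change of 1.24 ± 0.48 (SE) and an adjusted p of 0.235.

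Sult1a1, the main phenol sulfotransferase, was read at 4624 and 3977 in mouse 4001, 3287 in mouse 4002, 4788 and 4713 in mouse 4007, and 1117 and 1152 in WT. All 5 LBR-null libraries stood well above WT, with mouse 4002 the lowest, 4113 ± 749.6 (SD, n = 3 mice) against 1134. Its log2 fold change was 1.84 ± 0.29 and its adjusted p 0.0906 by limma, the lowest of the members that were higher. Sult1a1 lies at chr7:133816379-133819946 (mm9), away from the other Sult1 genes. Sult1b1, which sulfates thyroid hormones and simple phenols, was at 525 and 477 in mouse 4001, 305 in mouse 4002, 196 and 189 in mouse 4007, and 99.2 and 100.4 in WT. Here too no LBR-null library reached down to WT, with mouse 4001 highest and mouse 4007 lowest, at a log2 fold change of 1.62 ± 0.53 (adjusted p = 0.176, limma).

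A further pair of Sult1 genes was higher at levels near the floor of detection. Sult1e1, the oestrogen sulfotransferase, was at 4.59 and 7.99 in mouse 4001, 11.2 in mouse 4002, 27.9 and 19.1 in mouse 4007, and 1.57 and 1.81 in WT. The groups did not overlap, and the log2 fold change was 2.27 ± 0.79 (adjusted p = 0.198, limma). Sult1c1 had 36 reads in the 5 LBR-null libraries and 3 in the WT libraries, a ratio of 5.35 with an exact 95% interval of 1.69 to 27.1 for counting error only. Its normalized counts were 8.04 and 6.21 in mouse 4001, 10.3 in mouse 4002, 7.45 and 1.82 in mouse 4007, and 2.36 and 0 in WT, so the groups overlapped by 1 library. Its log2 fold change of 1.88 became 3.01 without the first WT library and 1.26 without the second. Its neighbour Sult1c2 differed in the other direction, at 733 and 571 in mouse 4001, 695 in mouse 4002, 513 and 513 in mouse 4007, and 1253 and 1307 in WT. Every LBR-null library was below WT, with a log2 fold change of -1.06 ± 0.27 and an adjusted p of 0.124 by limma. The pair lies at chr17:53968962-54129999 (mm9).

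The hydroxysteroid sulfotransferases of the Sult2a group, best known from liver, were almost absent. Sult2a2, Sult2a4 and Sult2a5 were at 0 in all 7 libraries, and Sult2a1, Sult2a3, Sult2a6 and Sult2a7 had no more than 2.58 normalized counts in any library and 0 in WT. A count of 0 allows up to 3 reads, or 2.36 to 3.44 normalized counts by library, for counting error only. Sult2a8 was tested and read at 21.8 and 16 in mouse 4001, 10.3 in mouse 4002, 3.73 and 1.82 in mouse 4007, and 0.787 and 4.52 in WT, highest in mouse 4001. Its log2 fold change was 1.37 ± 0.97, with overlapping groups, and became 0.78 without the first WT library, 2.41 without the second, 0.84 without mouse 4001 and 2.04 without mouse 4007. Sult2b1, a cholesterol sulfotransferase of skin, was at 55.9 to 198 in LBR-null and 86.8 and 89 in WT, with the highest value in mouse 4002. Sult5a1 was at 27.5 to 134 in LBR-null and 78.7 and 85 in WT, and Sult6b1 at 0.911 to 6.21 in LBR-null and 6.33 and 13.4 in WT. Sult4a1, a brain form, and Sult3a1 did not reach the level for testing, at 3.44 to 6.89 in LBR-null and 3.94 and 4.52 in WT and 0 to 13.8 in LBR-null and 0 and 0.905 in WT.

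**Figure D3:**
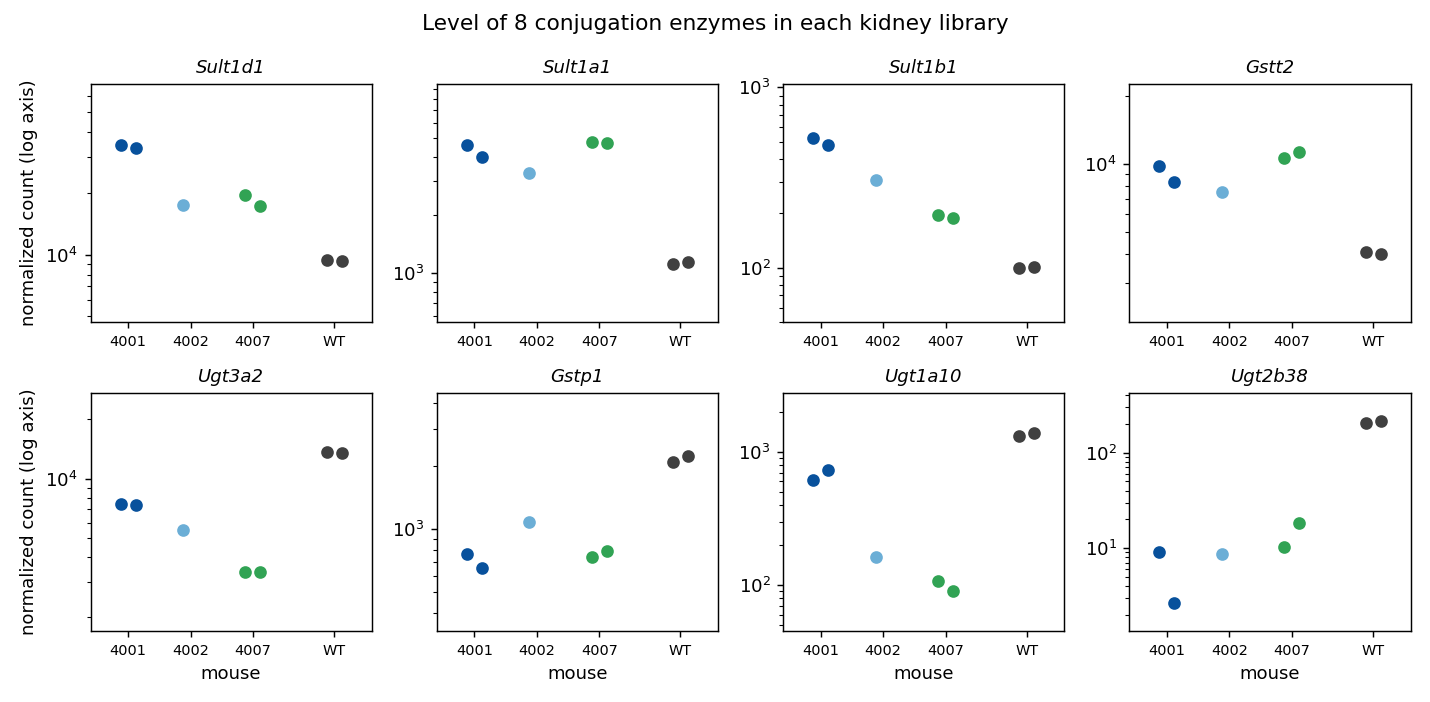
Normalized counts (log axes, scaled for each gene) of 8 members in each library, 2 points for mice 4001, 4007 and WT and 1 for mouse 4002. Sult1d1, Sult1a1, Sult1b1 and Gstt2 are higher in all 5 LBR-null libraries than in both WT libraries, and Ugt3a2, Gstp1, Ugt1a10 and Ugt2b38 are lower in all 5. For Ugt1a10, mouse 4001 lies closest to WT.

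The glutathione S-transferases had the largest summed counts of the 3 classes and the smallest difference in that sum, with all 21 members tested and a median log2 fold change of 0.01. Gstm1, a broad-range mu-class enzyme with the highest GST level per length over the 4 mice, was at 9970.2 and 9046 in mouse 4001, 10658 in mouse 4002, 8993 and 9174 in mouse 4007, and 11534 and 11008 in WT. In WT alone Gsta2 was higher per length, at 9281 normalized counts per kb against 8085. The Gstm1 log2 fold change was -0.21 ± 0.30 (adjusted p = 0.745, limma). The 4 theta-class genes sit side by side within 60.8 kb at chr10:75236860-75297626 (mm9) and lay on both sides of WT. Gstt2 was read at 9790.0 and 8375 in mouse 4001, 7529 in mouse 4002, 10645 and 11332 in mouse 4007, and 4084 and 4000.3 in WT, a mean ratio of 2.28 and a log2 fold change of 1.17 ± 0.32 (adjusted p = 0.135, limma). Its immediate neighbour Gstt4 was higher at a far lower level, 8.04 to 19.6 in LBR-null and 4.72 and 5.43 in WT. Gstt1 was below WT in every LBR-null library, at 1603 to 2253 in LBR-null and 2609.8 and 2619.8 in WT, and Gstt3 above it, at 1845 to 2167 in LBR-null and 1629 and 1677 in WT, both by less than 2-fold.

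Gstp1, the pi-class enzyme, was the GST gene with the largest difference downwards. It was read at 764 and 651 in mouse 4001, 1087 in mouse 4002, 734 and 788 in mouse 4007, and 2088 and 2241 in WT, a mean of 852 ± 205 (SD, n = 3 mice) against 2164. All 5 LBR-null libraries lay below WT, mouse 4002 being nearest to it, with a log2 fold change of -1.37 ± 0.31 and an adjusted p of 0.114 by limma. Gstp1 shares 57.3% of its 100-base windows with Gstp2, the next gene on chromosome 19, so reads of the pair may have been split. Gstp2 was at 5.59 to 26.4 in LBR-null and 5.43 and 10.2 in WT. How shared reads were handled is not known, and their part in these values was not tested.

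In the mu-class cluster of 7 genes (chr3:107698739-107847812, mm9), 4 members were below WT in every LBR-null library, as were 25.7% of all genes. Gstm4 had 233 and 225 in mouse 4001, 244 in mouse 4002, 194 and 196 in mouse 4007, and 423 and 447 in WT, a log2 fold change of -0.97 ± 0.29 (adjusted p = 0.157, limma) with the groups far apart. Gstm6 was at 37.3 to 47.9 in LBR-null and 65.1 and 78 in WT, while Gstm1 and Gstm2 differed from WT by less than 1.2-fold in the means. Gstm5 was at 1926 to 3230.0 in LBR-null and 2811 and 2946 in WT, with mouse 4001 level with WT, and Gstm7 at 307 to 403 in LBR-null and 304 and 317 in WT. Gstm3, a minor member, was at 6.02 to 32.2 in LBR-null and 7.87 and 8.14 in WT, with the highest value in mouse 4001. Of the alpha class, Gsta2 was below WT throughout, at 6999.7 and 5592 in mouse 4001, 7287 in mouse 4002, 6723 and 6664 in mouse 4007, and 10312 and 10496 in WT, with a log2 fold change of -0.62 ± 0.28. It shares 35.0% of its windows with other genes. Gsta4, which conjugates the lipid peroxide product 4-hydroxynonenal, was at 5567 to 7537 in LBR-null and 6062 and 6298 in WT, and Gsta3 at 1682 to 3739.8 in LBR-null and 2365 and 2388 in WT, so both overlapped WT. Gsta1 overlapped as well, at 45.9 to 104 in LBR-null and 66 and 74.8 in WT, and shares 81.8% of its windows, mostly with Gm3776. Gsto1, an omega-class enzyme that reduces dehydroascorbate, was above WT in every LBR-null library, narrowly in mouse 4002, at 2392 to 5101 in LBR-null and 2346 and 2386 in WT. Its log2 fold change of 0.47 became 0.20 without mouse 4001. Gstk1, Gstz1 and Gsto2 had log2 fold changes of 0.01, 0.13 and -0.03.

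The glycosyltransferases spread the widest, with 7 of 17 tested members above 0, 10 below and a median log2 fold change of -0.37. Of the 7, Ugt2b1 and Ugt2b35 could be tested only if higher. Ugt3a2 led the class in level per length, at 2337 normalized counts per kb of exon in LBR-null and 5817 in WT. It was read at 7479.7 and 7365 in mouse 4001, 5521 in mouse 4002, 3390.0 and 3385 in mouse 4007, and 13581 and 13514 in WT. Each LBR-null mouse was well below WT and mouse 4007 was the lowest, with a log2 fold change of -1.39 ± 0.45 (adjusted p = 0.178, limma). Ugt3a1, which lies within the same 91.1 kb (chr15:9209584-9300710, mm9), was at 189 to 625 in LBR-null and 372 and 413 in WT and overlapped WT. Ugt8a also overlapped, at 172 to 647 in LBR-null and 358 and 363 in WT.

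Ugt2b38 showed the largest difference of all members. It was read at 9.19 and 2.66 in mouse 4001, 8.6 in mouse 4002, 10.2 and 18.2 in mouse 4007, and 205 and 213 in WT. No LBR-null library came within 10-fold of WT, the WT mean was 21.8 times the LBR-null mean, and the log2 fold change was -4.39 ± 0.59 (adjusted p = 0.0795, limma). The gene shares 24.2% of its windows with Ugt2b5, so part of its reads could belong there. Ugt2b5 itself was at 19.1 to 82.7 in LBR-null and 24.4 and 25.2 in WT. By animal, the log2 ratios were -4.92, -4.45 and -3.79 in mice 4001, 4002 and 4007, of which only mouse 4002 was near WT in Xist and Ddx3y.

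Ugt2b38 sits in a run of 12 members over 702 kb (chr5:87318792-88020636, mm9) that holds most Ugt2 genes and, at its far end, Sult1b1, Sult1d1 and Sult1e1. Within this run, 8 of the 11 tested genes had positive log2 fold changes, among them Sult1e1, Ugt2b1 and Ugt2b35, which could be tested only if higher, and 3 had negative ones. The next tested gene on one side of Ugt2b38 is Sult1b1, at 1.62, and on the other side Ugt2a3, at 0.78, a value within its SE of 0.833 (adjusted p = 0.665, limma). Ugt2a1, too low to be tested, lies between Ugt2b38 and Sult1b1. Ugt2b1, which acts on steroids and drugs, was higher throughout but low, at 25.3 and 27.5 in mouse 4001, 13.8 in mouse 4002, 14 and 6.38 in mouse 4007, and 2.36 and 3.62 in WT, with a log2 fold change of 2.05 ± 0.67 (adjusted p = 0.18, limma). Ugt2b34 was at 212 to 597 in LBR-null and 642 and 669 in WT and Ugt2b37 at 3.55 to 15.8 in LBR-null and 17.2 and 20.5 in WT, both below WT in every LBR-null library. The log2 fold change of Ugt2b34, -0.78, became -0.36 without mouse 4002.

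Several Ugt2 genes were highest in mouse 4001. Ugt2b35, Ugt2b36, Ugt2b5 and Ugt2a3 had log2 ratios to WT of 2.19, 2.20, 1.48 and 1.89 in mouse 4001. In mouse 4002 the same genes stood at 1.27, 0.21, -0.20 and -0.02, and in mouse 4007 at 0.28, -0.56, -0.25 and 0.45. The log2 fold change of Ugt2b35, 1.245, became 0.64 without the first WT library, 2.32 without the second and 0.77 without mouse 4001. Mouse 4001 was also the animal with the highest sum of liver markers, with Alb at 11133 and 6385 against 1503 to 2245 in the other LBR-null libraries. The 3 skeletal muscle markers (Ckm, Acta1 and Mylpf) summed to 867 and 773 in mouse 4001, 62.9 to 71.4 in the other LBR-null libraries and 87.4 and 30.8 in WT. The part of liver or muscle RNA in these values was not tested.

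**Figure D4:**
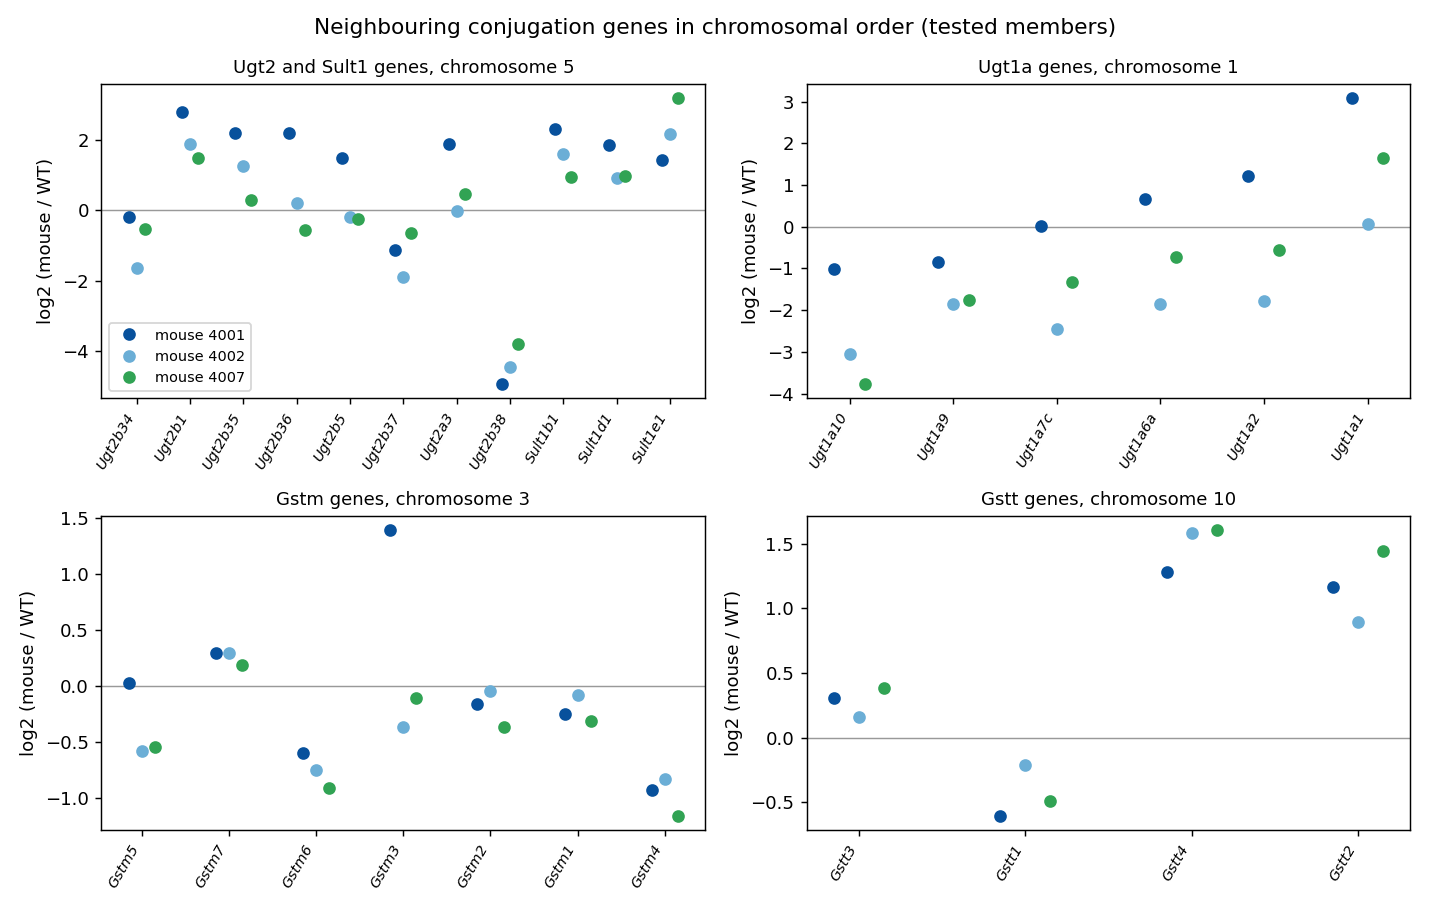
Log2 ratio of each LBR-null mouse to WT for the tested members of 4 gene clusters, in the order in which the genes lie on the chromosome (horizontal axis, not to scale). On chromosome 5, Ugt2b38 lies far below 0 in all 3 mice beside Sult1 genes above 0, and on chromosome 1 the Ugt1a values climb from Ugt1a10 to Ugt1a1 in each mouse, apart from Ugt1a7c in mouse 4002.

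The Ugt1a genes of chromosome 1 each have a first exon of their own and share the remaining exons, so reads in the common part cannot be assigned to a member. Between 57.2% and 80.4% of the windows of the 6 tested members were shared, and their levels are uncertain to that extent. Ugt1a10 was read at 617 and 728 in mouse 4001, 163 in mouse 4002, 108 and 90.2 in mouse 4007, and 1327 and 1389.5 in WT. All LBR-null libraries lay below WT, mouse 4001 much less so than the others, with a log2 fold change of -2.61 ± 0.96 (adjusted p = 0.218, limma) that became -3.41 without mouse 4001. Ugt1a9 was lower as well, at 3.65 to 13.8 in LBR-null and 18.1 in both WT libraries. Ugt1a1, which conjugates bilirubin, was higher, at 134 and 146 in mouse 4001, 16.3 in mouse 4002, 32.6 and 69.3 in mouse 4007, and 15 and 16.3 in WT, with mouse 4002 barely above WT and a log2 fold change of 1.60 ± 1.07 that became 0.85 without mouse 4001 and 2.37 without mouse 4002.

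In chromosomal order, the log2 fold changes were -2.61 for Ugt1a10, -1.49 for Ugt1a9, -1.25 for Ugt1a7c, -0.64 for Ugt1a6a, -0.37 for Ugt1a2 and 1.60 for Ugt1a1. The order of these values thus followed the order of the genes (chr1:89951963-90116577, mm9), although the SE of each, 0.654 to 1.07, is larger than most steps between neighbours. The mice differed among themselves at this locus. Ugt1a2 was at 1994 and 2623 in mouse 4001, 289.8 in mouse 4002, 684 and 657 in mouse 4007, and 971 and 1013 in WT, above WT in mouse 4001 and below it in mice 4002 and 4007. Ugt1a5 and Ugt1a6b were too low to be tested, at 0 to 6.21 in LBR-null and 3.15 and 5.43 in WT and 1.15 to 6.52 in LBR-null and 2.71 and 3.15 in WT. Outside this locus, Ugt2a1 was also too low, at 0.887 to 3.73 in LBR-null and 0 and 0.905 in WT, and Ugt2a2 was at 0 in all libraries.

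The counts were also taken animal by animal. Of the 13 members at least 2-fold higher by the group means, 13 were so in mouse 4001, 8 (61.5%) in mouse 4002 and 7 (53.8%) in mouse 4007. For all genes at least 2-fold higher by the means, the shares were 87.6%, 72.4% and 87.8%. Of the 8 at least 2-fold lower, 5 (62.5%) were so in mouse 4001, 5 in mouse 4002 and 7 (87.5%) in mouse 4007, beside 85.5%, 73.3% and 92.2% of all such genes. Only Sult1a1, Sult1c1, Sult1e1, Gstt4 and Ugt2b1 were 2-fold higher in each of the 3 mice, which is 10.4% of the 48 members, beside 8.59% of all genes. Of these 5, Sult1c1, Sult1e1 and Ugt2b1 are among the genes that could be tested only if higher. Ugt2b38 and Ugt1a10 were 2-fold lower in each, which is 4.17%, beside 4.02% of all genes. What runs with Xist and Ddx3y cannot be told apart from genotype in mice 4001 and 4007, and the part of the androgen-raised genes, of which Kap and Odc1 were below WT also in mouse 4002, was not tested. In mouse 4002 alone, the log2 ratio was 1.53 for Sult1a1, 0.90 for Sult1d1, 0.90 for Gstt2, -0.99 for Gstp1 and -1.29 for Ugt3a2. These genes were chosen with all 3 LBR-null mice on one side of WT, so the sign of these ratios was fixed by the choice.

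By sequence alone, most of these enzymes start without a CpG island. The study's own classes also used islands found by experiment and, for genes without one, the gene body. The classes here can therefore differ from those of the study. An island window (over 200 bases, GC content of at least 50% and an observed to expected CpG ratio above 0.6) overlapped the region within 500 bases of a coding start in 17 of the 58 members matched to mm9 gene models (29.3%), beside 71.3% of all matched genes. Under a stricter definition the shares were 13.8% and 60.3%. Among tested members without an island, 34.4% were at least 2-fold higher in LBR-null and 21.9% at least 2-fold lower, beside 32.4% and 16.0% of all tested genes without one. For members with an island, the shares were 6.67% in each direction, beside 8.81% and 5.84% of all genes with one. These shares are over genes that passed the filter on low values. The members without an island include Sult1c1, Sult1e1, Ugt2b1 and Ugt2b35, which could be tested only if higher. They also include Sult6b1, which passed only through WT. Sult2a8 was not matched to a gene model and is in neither group. Of the 5 starts printed above, the Gstp1 start has an island, which it loses under the stricter definition, and the other 4 have none.

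Letters of 3 elements known from detoxification genes were searched in the starts. In the 250 bases before the start, the antioxidant response element core TGACNNNGC was found in 3 of 53 members (5.66%, beside 11.5% of all genes with an entry), and GCGTG in 9 (17.0%, beside 30.9%). GTTAAT was found in 13 members (24.5%, beside 7.49% of all genes). These 13 include Sult1a1 and Sult1d1, which were higher, and Ugt1a10 and Ugt1a9, which were lower. They also include Sult2a3, Sult2a4, Sult2a5 and Sult2a6, which were too low to be tested. Ugt2b38 held none of the 3 motifs. Matches were counted on both strands, and a match of one motif may overlap a match of another. Base composition was not matched, and fewer members than genes in general have an island (29.3% beside 71.3%). The part of base composition in the motif shares was not tested.

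Genes that supply and process the conjugates were read as lists, and none of them passed an adjusted p of 0.05 in limma. Glutathione is made by glutamate-cysteine ligase and glutathione synthetase. The catalytic subunit Gclc was higher, at 6988 to 11438 in LBR-null and 3906 and 3927 in WT, while the modifier subunit Gclm was lower, at 2573 to 4126 in LBR-null and 5974 and 6146 in WT, and so was the synthetase Gss, at 2574 to 4538 in LBR-null and 7819.8 and 7905 in WT. Of the 8 genes of glutathione supply, 1 was higher and 3 were lower at an unadjusted p under 0.05, with a median log2 fold change of -0.28. For these lists as for the members, the shares over all genes are 10.7% higher and 8.05% lower. Mgst1, a microsomal transferase of an unrelated protein family, was at 3142 to 6610.4 in LBR-null and 1836 and 1840.4 in WT. In its list of 10 membrane-bound and other glutathione transferases, 2 genes were higher by this measure and 0 were lower. In all the lists, genes that passed the filter on low values through 1 group only were not set apart. A count of higher genes may therefore include some that could be tested only if higher.

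The list of mercapturate and glutathione breakdown genes, which also holds the glutathione-degrading Chac1 and Chac2 of the cytosol, had 6 of 13 genes lower and 1 higher by the same measure, with a median log2 fold change of -0.82. Acy3, an aminoacylase that acts on mercapturates, was at 1072 and 926 in mouse 4001, 1607 in mouse 4002, 850.3 and 845 in mouse 4007, and 10541 and 10536 in WT. Nat8, the cysteine conjugate N-acetyltransferase, was at 0.931 to 7.74 in LBR-null and 111 and 129 in WT. Both were far below WT in all 5 LBR-null libraries. Ggt1, Dpep1, Anpep and Acy1 were lower by smaller amounts, with log2 fold changes of -1.03, -1.07, -1.31 and -1.44. Ccbl1, a cysteine conjugate beta-lyase, was higher, at 2115 to 2938 in LBR-null and 1379 and 1458 in WT. Ggt1, Dpep1, Anpep and Acy3 are known from the proximal tubule. Of the 9 tubule markers, 6 lay below WT and 3 above it in the same libraries, where Miox was at 2091 to 7593 in LBR-null and 63962 and 64341 in WT but Slc5a12 at 7742 to 14905 in LBR-null and 4507 and 4653 in WT. The part of tubule mRNA as a whole in these values was not tested.

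For glucuronidation, 0 of the 6 genes of UDP-glucuronate supply and glucuronide removal were higher and 1 was lower at an unadjusted p under 0.05 in limma. The lower gene was Gusb, the beta-glucuronidase that removes the sugar again, with a log2 fold change of -0.83. Ugdh, which makes UDP-glucuronate, was at 1682 to 2318 in LBR-null and 2629 and 2635 in WT. For sulfation, the PAPS synthases Papss1 and Papss2 had log2 fold changes of -0.35 and 0.04. Slc13a1, the sulfate transporter of the brush border, was lower, at 847 to 1125 in LBR-null and 3384 and 3539 in WT. At an unadjusted p under 0.05, 1 of the 13 genes in that list was higher and 4 were lower. Among exporters and organic anion transporters the count was 1 higher and 3 lower of 11. Slc22a6 (OAT1), which takes up organic anions from blood, was at 313 and 412 in mouse 4001, 552 in mouse 4002, 334 and 292 in mouse 4007, and 7297 and 7267 in WT, with a log2 fold change of -4.19 ± 0.36 (adjusted p = 0.0584, limma), and Slc22a8 (OAT3) was at 1665 to 3669 in LBR-null and 12109 and 12157 in WT.

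Of 18 regulators of these genes, 4 were higher and 0 lower in limma at a p under 0.05 without adjustment. The median log2 fold change was 0.20, with 12 above 0 and 6 below, and Ahrr, the repressor of the aryl hydrocarbon receptor, was the lowest at -2.31. Nr1i3 encodes CAR, a nuclear receptor that drives Ugt, Gst and Sult genes in liver. It was read at 206 and 225 in mouse 4001, 283 in mouse 4002, 487 and 458 in mouse 4007, and 16.5 and 19.9 in WT. Every LBR-null library was over 10-fold above WT, with a log2 fold change of 4.00 ± 0.48 and an adjusted p of 0.0695 by limma. Ppara, a receptor for fatty acids, was at 2200.2 to 4874 in LBR-null and 1397 in both WT libraries, and Maff, a small partner of NRF2, at 299 to 642 in LBR-null and 102 and 109 in WT. Nfe2l2, which encodes NRF2, and Ahr, the aryl hydrocarbon receptor, were at 2214 to 2987 in LBR-null and 2429 and 2448 in WT and at 375 to 431 in LBR-null and 324 and 356 in WT.

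**Figure D5:**
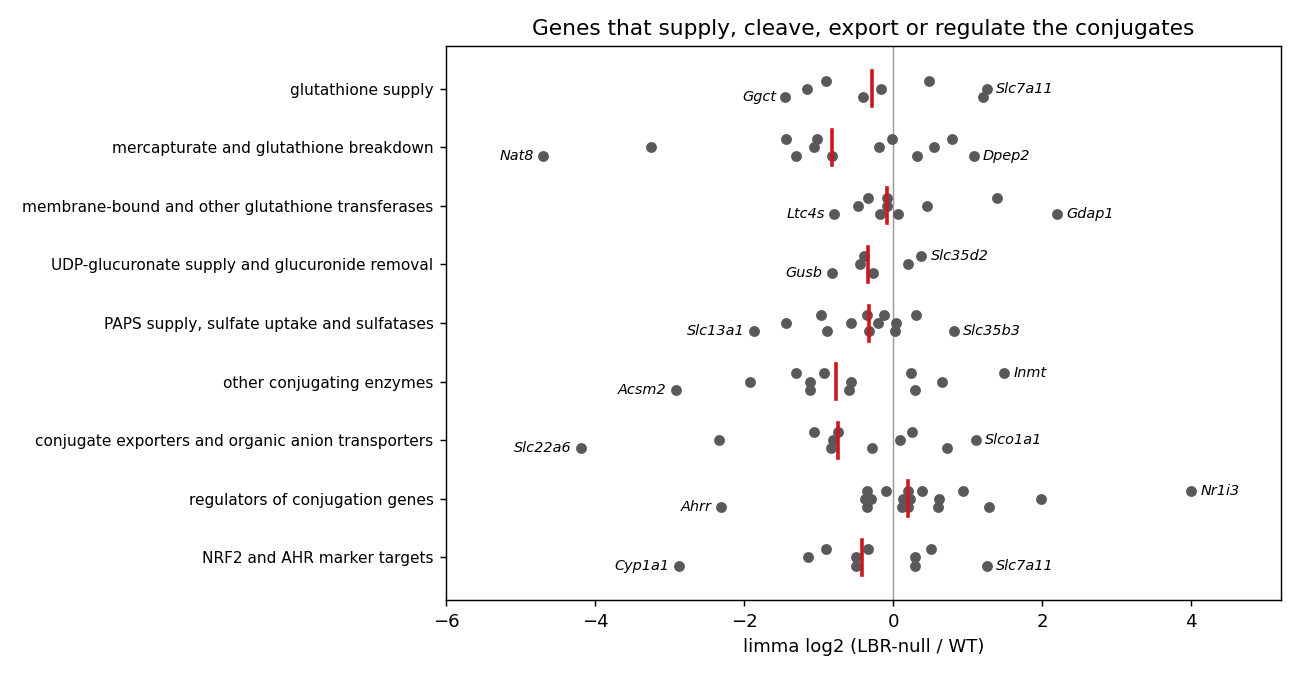
Limma log2 fold change of LBR-null over WT (horizontal axis) for each tested gene of 9 lists that surround the conjugation enzymes, with the list's median as a red bar and the genes at both ends named. The medians lie between -0.82 for mercapturate and glutathione breakdown and 0.20 for the regulators, and Nat8, Slc22a6 and Nr1i3 lie farthest from 0.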

How the data were processed

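Poly(A) RNA of kidney was sequenced as 150 bp paired ends. Per the labels and the study's methods, the authors aligned reads with STAR 2.6.0 to mm9 and normalized counts with DESeq2 1.25.1. The counter and annotation are not given in the sources used here. The deposited values (signal) are reads divided by a size factor, and 100% of values came out as whole reads (tolerance 0.01). Libraries of 1 mouse differed less than libraries of different mice (scaled chi-square of 1.84 to 8.35 against 11.3 to 64.9) and were averaged. Depth was 20694016 to 26333284 reads per library.

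LBR-null and WT mice were compared with limma 3.58.1 (eBayes with trend) on log2(normalized count + 1), which understates low genes, for the 17283 genes whose mean over the 4 mice reached 5. The Benjamini-Hochberg method was used for adjustment. Alternatives were edgeR 4.0.16 and DESeq2 1.42.0 on recovered reads summed per mouse, other pseudocounts, filters and scalings, and leaving out animals or libraries. The scripts were tested on simulated data.

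Gene models were GENCODE M1 (mm9), shared windows are 100-base stretches also found in another gene's transcripts, and promoters are RefSeq (GRCm38.p6). The members and lists were chosen with earlier results of these data known, and the motifs after the values were seen. Named genes are the 12 members with the largest log2 fold change in each direction among those with all LBR-null mice on one side of WT, the highest per length in each class, and neighbours. Other members are given so that each is accounted for, and other list genes were chosen after their values were seen.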

Additional observations from a re-analysis of the deposited data

Results flagged for a closer look

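In 4 of the 48 tested members, 1 of the 5 LBR-null libraries stood far from the other 4 by Dixon's gap test. Chance does so in about 1 in 20 groups of independent values, a rate that does not hold here because the 5 libraries come from 3 mice. Gsta4 was at 7537 in the first library of mouse 4001, above the other LBR-null libraries at 5567 to 6135, while the second library of the same animal was at 5890. Gstm3 was at 32.2 in that library against 13.3 in the second library of mouse 4001 and 6.02 to 8.38 in the others. Ugt1a9 was at 13.8 there against 3.65 to 5.59. Sult2b1 was at 198 in the single library of mouse 4002 and 55.9 to 92.2 elsewhere in LBR-null.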

How the results depend on the processing

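The named genes were chosen with all LBR-null mice on one side of WT, which largely fixes their direction, so a kept direction is no sign of stability. In 33 of the 383 values that the alternatives gave for them, a gene passed an adjusted p of 0.05 that it missed in limma on the mouse means. The count of called members was 0 in the main test and 0 under both pseudocounts, both filters, equal totals, TMM scaling and edgeR. It was 6 with DESeq2. Leaving out replicates gave 0 to 7, with 7 without mouse 4001 and 3 without mouse 4002. With 6 numbered libraries as samples and the mouse as a random effect it was 9, and 9 again with the library number as a replicate block (8.60% and 7.60% of all genes). The library numbers did not pair the samples, since the differences between libraries 1 and 2 correlated over genes at -0.02, -0.005 and -0.04 between mice. This fit leaves out mouse 4002.

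At a mean of at least 20, 4 members were higher at an unadjusted p under 0.05, 5 were 2-fold higher and 5 2-fold lower, since fewer members are tested. Among these, Ugt1a1 and Ugt2b38 each passed that level through 1 group only. Leaving out replicates moved the count of members lower at an unadjusted p from 6 to between 5 and 12 (12 without mouse 4001, 25% of members, where the share of all genes went from 8.05% to 13.4%). The count above WT in every library went from 10 to between 13 and 16 (16 without mouse 4007, 32.7%, beside 27.9% of all genes), and the count below WT from 15 to between 14 and 22 (22 without mouse 4001, 45.8%, beside 35.3%). An alternative added after the values were seen left out the members that share over 20% of their windows. Under it, 3 members were lower at an unadjusted p in limma and 4 were 2-fold lower, against 6 and 8 in the main setting. Over all genes the shares are 8.05% and 7.04%. Fewer members are counted here, and these counts support no excess of lower members. Under stricter islands the share of members with one was 13.8%. Ratios of means and overlaps of libraries take no pseudocount and come from no model, so those alternatives give no value for them. Counts of a few reads limit Sult1c1, Sult1e1, Gstt4 and Ugt2b1, and 1 WT animal limits every comparison.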

Other observations

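Enzymes that conjugate with other groups were lower more often than higher. Of 12 tested genes for methylation, acetylation and glycine conjugation, 0 were higher and 5 were lower at an unadjusted p under 0.05 in limma (10.7% and 8.05% of all genes were), and the median log2 fold change was -0.76. Acsm2, an acyl-CoA synthetase of the proximal tubule that prepares acids for glycine conjugation, was at 1548 to 3120.1 in LBR-null and 17624 and 17896 in WT. Glyat, the glycine transferase itself, was at 1555 to 2536 in LBR-null and 4989.6 and 5078 in WT. Inmt, an indole N-methyltransferase, lay above WT in every LBR-null library, at 2316 to 8058 in LBR-null and 1738 and 1742 in WT, with mouse 4002 nearest to WT.

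Genes often used as readouts of NRF2 and of the aryl hydrocarbon receptor did not move together. Nqo1 was at 1456 to 2249 in LBR-null and 2229.9 and 2248 in WT and Osgin1 at 506 to 965 in LBR-null and 1567 and 1650.1 in WT. Hmox1 overlapped WT, being at 1707 and 1645 in mouse 4007 and at 324 to 424 in the other LBR-null libraries, with WT at 447 and 413. Cyp1a1 was at 1.15 to 12.1 in LBR-null and 53.5 and 61.5 in WT. Of the 10 genes in this list, 0 were higher and 3 were lower at an unadjusted p under 0.05 in limma.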
